A study of Mus musculus with 6 samples.

Results

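Gasdermins, the inflammatory caspases with their adaptor and DNA sensor, and the kinase and effector of necroptosis were followed in the inflamed colon of mice with and without *Nedd4l* in intestinal epithelial cells. The genes were chosen by name: *Gsdmc2*, *Gsdmc3*, *Gsdmc4*, *Gsdmd*, *Casp1*, *Casp4*, *Pycard*, *Aim2*, *Ripk3* and *Mlkl*, which are 10 of the 27202 genes listed. All 10 were among the 16246 genes that averaged 10 or more normalized counts, which were the genes tested. Whole colonic tissue was taken from mice of a pair of genotypes, called cKO and WT below after their sample titles. The cKO group is 3 Nedd4l fl/fl Villin Cre animals (cKO1, cKO2 and cKO3), whose Cre is driven by the Villin promoter and removes *Nedd4l* from intestinal epithelial cells but not from the other cells of the colon. The WT group is 3 Nedd4l fl/fl littermates (WT1, WT2 and WT3), which carry the same floxed alleles without Villin Cre. Both the floxed and the Cre lines were on a C57BL/6J background. All 6 mice were 8 to 10 weeks old at the start, had 2% dextran sulfate sodium (DSS) in the drinking water, and were killed on day 7, so every value below is from tissue injured by DSS and no untreated colon was compared. DSS damages the lining of the colon.

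Gasdermins are pore-forming proteins. Inflammasome sensors such as AIM2, which binds DNA in the cytosol, act through the adaptor ASC (encoded by *Pycard*) to activate caspase-1, whereas caspase-11 (encoded by *Casp4* in the mouse) binds bacterial lipopolysaccharide directly. Both caspases cut gasdermin D, and its released N-terminal part opens pores in the plasma membrane, a form of lytic cell death called pyroptosis. In necroptosis, RIPK3 phosphorylates MLKL, which then breaches the membrane. The colonic epithelium of mice is known for its content of gasdermin C proteins, which are encoded by a cluster of near-identical genes and are induced there by the type 2 cytokines IL-4 and IL-13 through STAT6.

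*Nedd4l* itself stood at 476, 942 and 566 normalized counts in cKO1, cKO2 and cKO3 and at 1241, 1271 and 1266 in WT1, WT2 and WT3. The genotypes did not overlap, and cKO2 had the most *Nedd4l* of its group. The difference was -0.99 on the log2 scale (SE 0.24, adjusted p = 0.225 by limma) with all 6 libraries and -1.28 (adjusted p = 0.0131 by limma) without cKO2. Over all tested genes, cKO2 also lay nearer to the littermates (mean Pearson r across genes 0.977) than to its own group (0.966). cKO1 was the farthest from the other libraries, at 0.963 with its own group and 0.948 with the littermates. Values without cKO1 or cKO2 stand below beside a number of the differences. Library totals ran from 14914367 to 17547270 in units of each library's smallest value. The 8 epithelial markers were *Epcam*, *Cdh1*, *Vil1*, *Krt8*, *Krt18*, *Krt19*, *Krt20* and *Cdx2*. They summed to between 180870 and 206611 normalized counts in cKO mice and between 195485 and 218672 in the littermates. The sum was lowest in cKO1, and 6 of the 8 had a lower mean log2 level in cKO mice. Because whole tissue was sequenced, fewer cells of a type and less RNA per cell cannot be told apart in any value below.

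With all 6 libraries, limma called 0 of the 10 genes and 0 of the 16246 tested genes at an adjusted p of 0.05, which is 0.0% of them, and the smallest adjusted p of any gene was 0.111. At an unadjusted p under 0.05, limma counted 1 of the 10 genes (*Ripk3*, higher), against 6.91% of all tested genes higher and 7.08% lower. Of the 10 genes, 6 had a higher mean log2 level in cKO mice and 4 a lower one, with a median difference of 0.04. Over all tested genes, 8160 were higher and 8086 lower, with a median of 0.0013. *Ripk3* and *Casp1* had every cKO library above every WT library, which is 2 of 10, while 21.4% of all tested genes did not overlap in either direction, 10.5% upward and 10.9% downward.

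**Figure D1:**
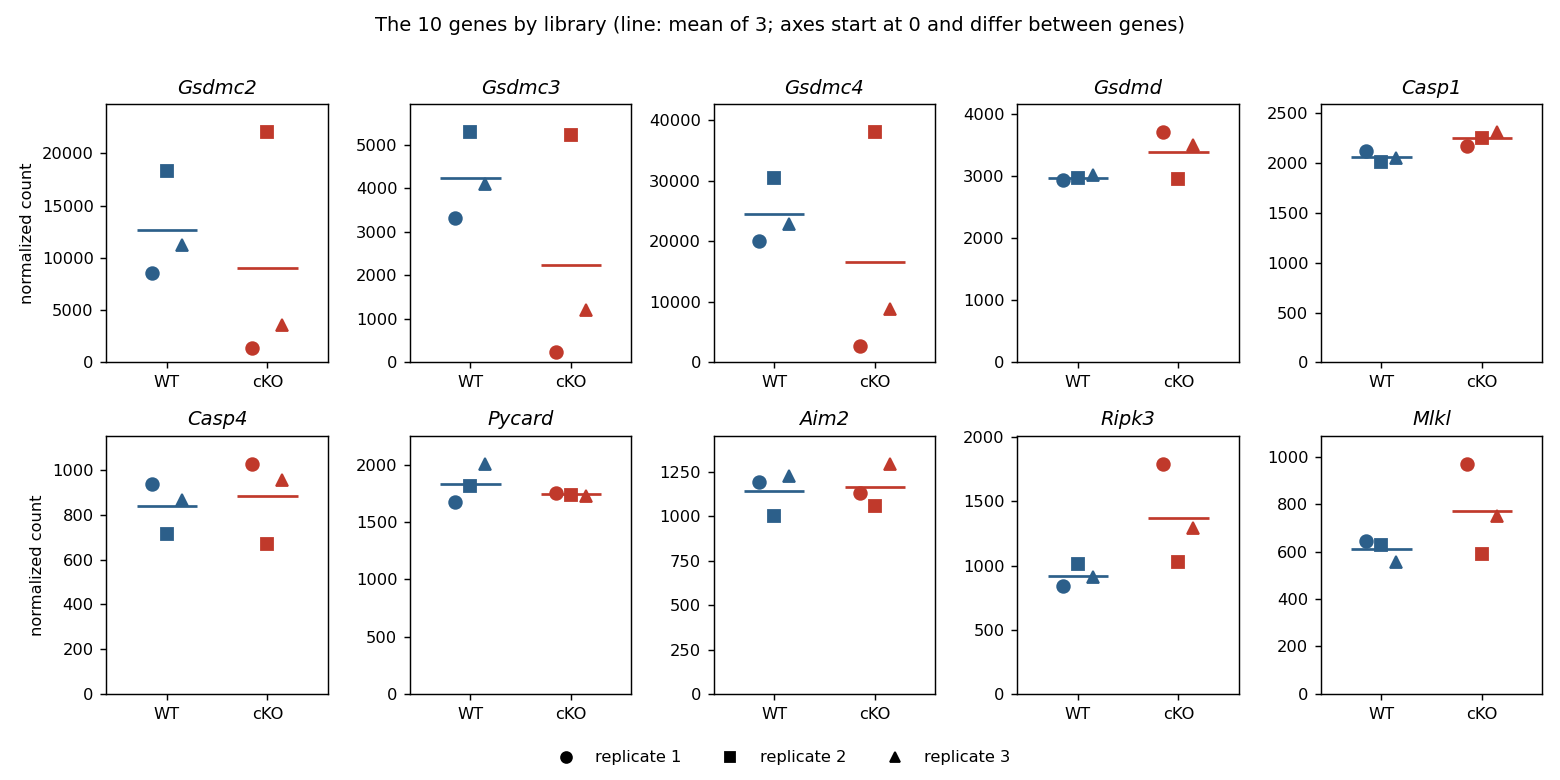
Normalized counts (y axis, starting at 0 and differing between panels) of the 10 genes in 3 WT and 3 cKO libraries, with the replicate number as the symbol and the mean of 3 as the line. *Gsdmc2*, *Gsdmc3* and *Gsdmc4* spread widely within cKO mice, of which cKO1 and cKO3 lie below every WT library, and *Ripk3* and *Casp1* do not overlap between the genotypes.

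*Gsdmc2*, *Gsdmc3* and *Gsdmc4* are neighbours on the minus strand of chromosome 15 (GRCm38 coordinates), at chr15:63824346-63845177, chr15:63857724-63878558 and chr15:63891264-63912297. Their sequences are shown here because their near identity bears on how separately they can be counted. The coding sequences of *Gsdmc2* and *Gsdmc3* had 1398 of 1440 aligned bases in common (97.1%), and each was 93.8% identical to that of *Gsdmc4*. The first 120 coding bases, at chr15:63835824-63835943, chr15:63869178-63869297 and chr15:63902811-63902930 on the minus strand, differed at 2 positions, which are in capitals:
Gsdmc2: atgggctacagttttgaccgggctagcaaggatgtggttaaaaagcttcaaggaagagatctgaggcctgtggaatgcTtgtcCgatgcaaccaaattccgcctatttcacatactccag
Gsdmc3: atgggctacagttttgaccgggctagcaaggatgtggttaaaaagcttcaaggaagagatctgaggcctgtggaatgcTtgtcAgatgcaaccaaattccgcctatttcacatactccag
Gsdmc4: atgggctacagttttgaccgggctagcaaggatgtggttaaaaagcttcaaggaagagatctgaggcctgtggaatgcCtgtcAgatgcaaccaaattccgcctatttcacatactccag

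The 120 coding bases at which the 3 genes differed most, which run from coding base 753 to 872 in *Gsdmc2* and *Gsdmc3* and from 759 to 878 in *Gsdmc4* and are interrupted by an intron in the genome, differed at 29 positions, again in capitals:
Gsdmc2: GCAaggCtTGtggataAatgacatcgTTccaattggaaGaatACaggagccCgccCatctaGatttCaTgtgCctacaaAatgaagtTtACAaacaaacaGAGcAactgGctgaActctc
Gsdmc3: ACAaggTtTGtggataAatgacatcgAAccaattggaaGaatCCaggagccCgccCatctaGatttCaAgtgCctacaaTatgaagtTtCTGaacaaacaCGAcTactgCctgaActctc
Gsdmc4: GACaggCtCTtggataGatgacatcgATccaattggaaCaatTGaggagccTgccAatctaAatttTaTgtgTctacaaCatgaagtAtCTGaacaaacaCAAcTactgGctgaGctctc

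Of all 100-base stretches of their transcripts, 28.6% in *Gsdmc2*, 23.1% in *Gsdmc3* and 20.2% in *Gsdmc4* occur unchanged in another gene of the cluster. How the counting treated reads that match more than 1 of these genes is not stated, so the split among the 3 is uncertain. *Gsdmc*, the remaining gene of the cluster, was listed at 0 to 3.99 normalized counts and was below the filter.

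The gasdermin C genes had the widest spread of the 10. *Gsdmc4* stood at 2786, 37988 and 8877 normalized counts in cKO1, cKO2 and cKO3 and at 20096, 30412 and 22846 in WT1, WT2 and WT3. cKO1 and cKO3 were below all littermates and cKO2 was above all of them. The means were 16550 ± 18814 (SD, n = 3) against 24452 ± 5342, a log2 difference of -1.30 (SE 0.94, 95% interval -3.64 to 1.04, adjusted p = 0.558 by limma).

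*Gsdmc2* followed the same order of libraries, with 1397, 22020 and 3556 normalized counts in cKO mice and 8534, 18284 and 11181 in WT mice. Its means were 8991 ± 11335 and 12667 ± 5042 (SD, n = 3), and the log2 difference was -1.33 (SE 1.03, 95% interval -3.90 to 1.24, adjusted p = 0.582 by limma). Again only cKO2 reached the level of the littermates.

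*Gsdmc3* was at 250.2, 5220 and 1213 normalized counts in cKO mice and at 3312, 5289 and 4089 in WT mice, where cKO2 lay within the range of the latter. With means of 2228 ± 2636 and 4230 ± 996 (SD, n = 3), it had the lowest log2 difference of the 10 genes at -1.83 (SE 1.09, 95% interval -4.54 to 0.88, adjusted p = 0.484 by limma). Two-sided exact permutation tests of 3 against 3 libraries, which cannot go below 0.10, gave p = 0.4 for *Gsdmc2* and *Gsdmc4* and p = 0.3 for *Gsdmc3*.

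Within the cKO group, the highest library exceeded the lowest by 15.8-fold for *Gsdmc2*, 20.9-fold for *Gsdmc3* and 13.6-fold for *Gsdmc4*, whereas among the littermates these ratios were 2.14, 1.60 and 1.51. Their log2 SDs in cKO mice, 2.02, 2.19 and 1.89, were larger than those of 99.4%, 99.6% and 99.3% of tested genes, for which the median was 0.193. Among the littermates the corresponding shares were 90.5%, 77.5% and 74.3%. Without cKO2 the log2 differences became -2.43, -2.91 and -2.28, with adjusted p-values of 0.139, 0.166 and 0.158 by limma. Without cKO1 they became -0.44, -0.72 and -0.39.

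Summed over the 3 genes, gasdermin C transcripts were 4432, 65229 and 13645 normalized counts in cKO1, cKO2 and cKO3 and 31943, 53986 and 38117 in WT1, WT2 and WT3. They took 0.0285%, 0.396% and 0.0859% of all normalized counts in the former and 0.199%, 0.342% and 0.240% in the latter. By its normalized count, *Gsdmc4* ranked 49, 27 and 39 among all listed genes in the littermates and 1118, 23 and 177 in the cKO libraries. The make-up of the sum moved less than the sum, with *Gsdmc4* at 56.3% to 65.1% of it in all 6 libraries. *Gsdmc3* made up 5.64% to 8.89% of it in cKO mice and 9.80% to 10.7% in WT mice, and these shares did not overlap.

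**Figure D2:**
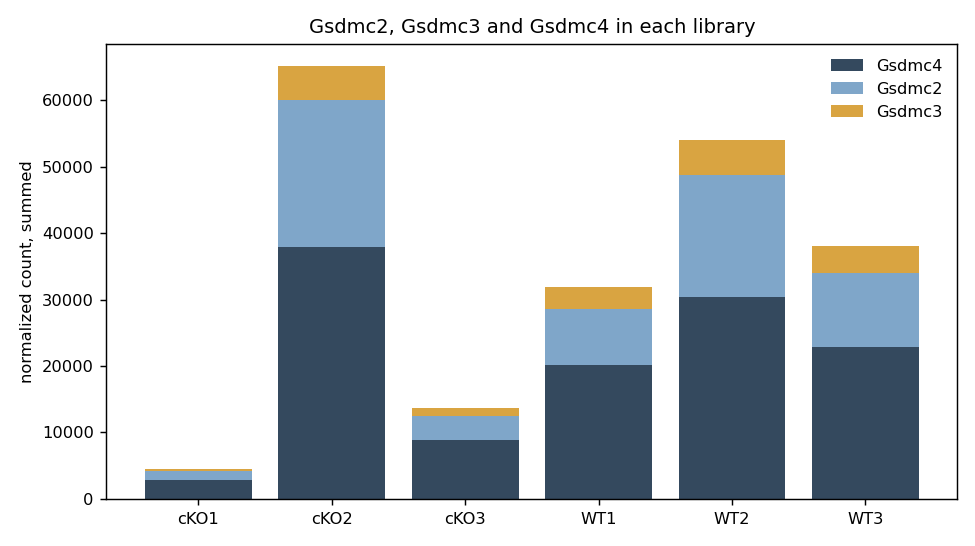
Normalized counts of *Gsdmc4*, *Gsdmc2* and *Gsdmc3* stacked for each of the 6 libraries (y axis, summed normalized counts from 0). The sum runs from 4432 in cKO1 to 65229 in cKO2, and the littermates lie between these.

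Only the window around the start of *Gsdmc3* was among the gasdermin C promoters matched in the RefSeq table (GRCm38.p6), and it is shown because these genes varied together across the libraries. It spans chr15:63878509-63878808 on the minus strand, 250 bases before to 50 after the start:
Gsdmc3 promoter: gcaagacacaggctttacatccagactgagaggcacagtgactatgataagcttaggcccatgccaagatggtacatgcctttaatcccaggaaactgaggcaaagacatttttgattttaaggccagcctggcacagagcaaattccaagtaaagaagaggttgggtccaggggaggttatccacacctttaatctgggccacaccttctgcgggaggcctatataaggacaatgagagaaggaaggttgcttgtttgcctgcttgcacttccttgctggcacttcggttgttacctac

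Searched on both strands, it held no match to the STAT6 letters TTCNNNNGAA, the STAT letters TTCNNNGAA, the interferon regulatory factor letters GAAANNGAAA or the NF-kB letters GGGNNTTTCC, none of which contains another. They occur in 6.95%, 8.30%, 3.44% and 1.63% of the 32851 windows of that length in the table. This says only that these letters are not in this window. Of the 7 genes with a window, only *Casp4* held any of these letters, a pair of NF-kB matches, GGGGATTTCC 93 bases and GGAAATGCCC (the reverse strand) 14 bases before its first annotated start. *Gsdmc2*, *Gsdmc4* and *Gsdmd* had no window in the table.

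Several markers differed in the same libraries as the gasdermin C genes. The mature colonocyte list (*Slc26a3*, *Car1*, *Car4*, *Aqp8*, *Cyp2c55*, *Ms4a12*) summed to 21513, 51480 and 24650 normalized counts in cKO1, cKO2 and cKO3 and to 59474, 48610 and 39708 in the littermates, and 5 of its 6 genes had a lower mean log2 level in cKO mice. None of the 6 was at 0 in any library. By this sum, as with the gasdermin C genes, cKO1 and cKO3 lay below all littermates and cKO2 did not. *Ms4a12* and *Car1* did not follow this order. *Ms4a12* was above every littermate in all cKO mice, at 0.25, 0.13 and 0.60 from the littermates' mean on the log2 scale. *Car1* was inside the littermates' range in cKO1.

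Of the 8 tested genes on the type 2 response list, 7 had a higher mean log2 level in cKO mice. *Ang4*, an antimicrobial ribonuclease of secretory cells, was the exception, at 14.4, 13877 and 1215 normalized counts against 4719, 3186 and 4120, so its cKO libraries stood in the order of the gasdermin C genes. *Retnlb*, which encodes a goblet cell protein, was at 1703, 7297 and 3756 normalized counts against 2464, 3836 and 3330. The mast cell protease gene *Mcpt1* was at 111, 643 and 274 against 68.1, 35.1 and 46.9, and the receptor gene *Il4ra* at 2879, 1382 and 1749 against 1119, 1003 and 1007. The list summed to between 9657 and 27744 normalized counts in cKO mice and between 11449 and 12541 in the littermates. In cKO2, *Ang4* alone was 13877 of the 27744. At an unadjusted p under 0.05 by limma 5 of the 8 were higher, where 6.91% of all tested genes were. Without overlap 4 of the 8 were higher, where 10.5% of all tested genes were. The smallest adjusted p of the list was 0.264 by limma. *Il4*, *Il5* and *Il13* were below the filter. The cytokine gene *Il33* was at 217, 35.4 and 105 against 39.5, 44.1 and 62.9, with cKO1 the highest and cKO2 the lowest of the 6, and *Stat6* was at 1944, 1869 and 1765 against 1708, 1509.6 and 1548, above every littermate. Goblet cell markers (*Muc2*, *Tff3*, *Clca1*, *Fcgbp*, *Agr2*, *Spdef*) summed to 85088, 417069 and 188217 against 289063, 145556 and 215380 normalized counts, with 3 of 6 genes higher. The part of these cell types in the gasdermin C values was not tested.

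**Figure D3:**
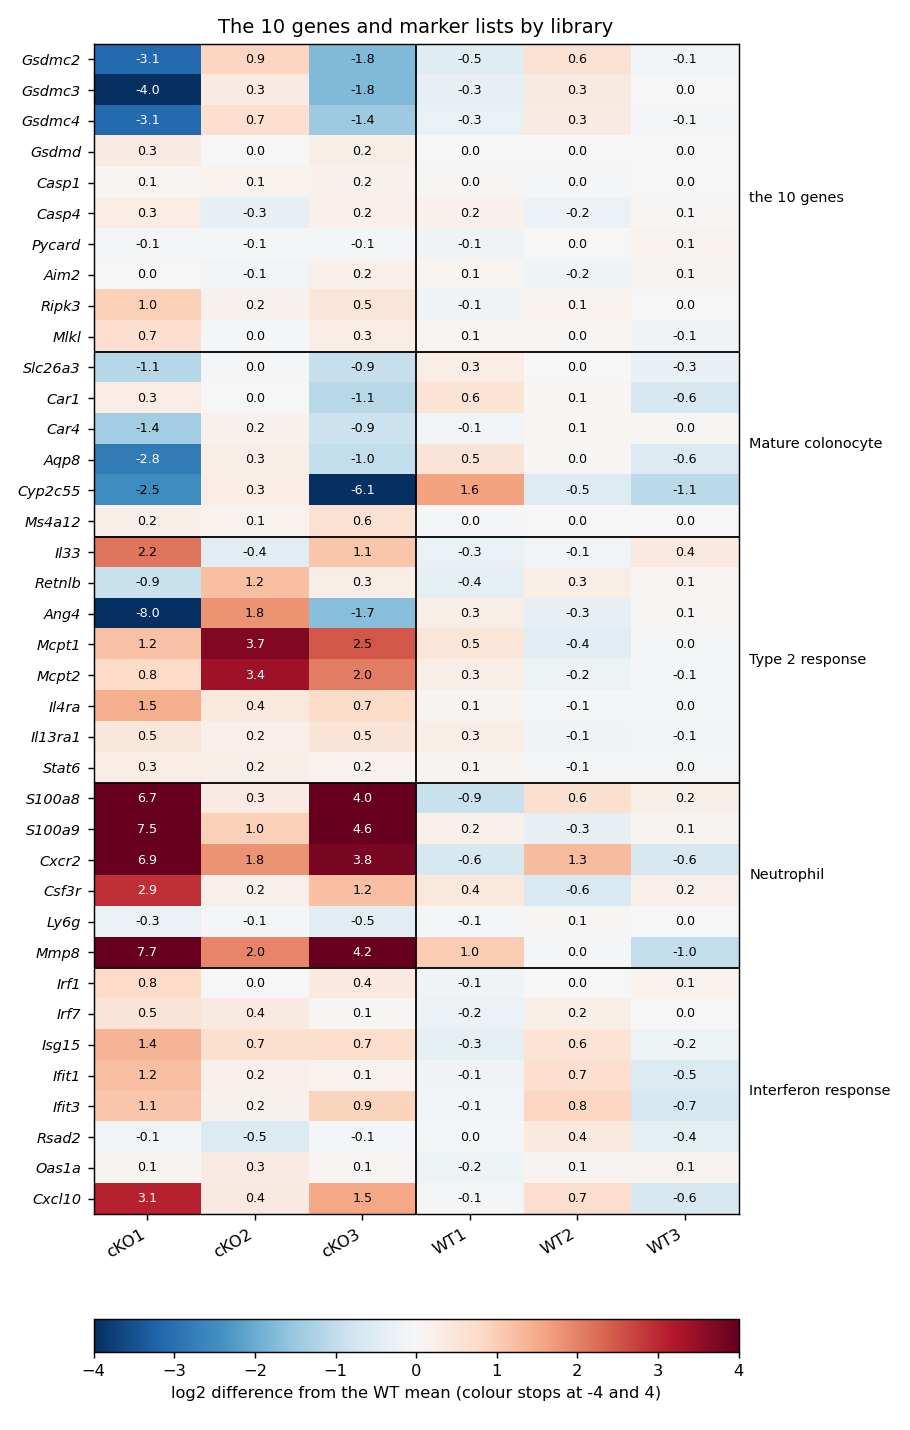
Difference of each gene (rows) in each library (columns) from the mean of the WT libraries on the log2(normalized count + 1) scale, for the 10 genes and 4 marker lists, with colour stopping at -4 and 4. cKO1 and cKO3 are low for the gasdermin C genes and high for most neutrophil markers, and cKO2 stays nearer to the WT libraries in both.

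*Gsdmd*, the executioner of pyroptosis, lies on the plus strand of the same chromosome at chr15:75862327-75867408. It was at 3703, 2953 and 3495 normalized counts in cKO1, cKO2 and cKO3 and at 2936, 2960 and 3013 in WT mice. cKO1 and cKO3 were above all littermates while cKO2 was inside their range. The means were 3383 ± 387 and 2969 ± 39.2 (SD, n = 3). The log2 difference was 0.18 (SE 0.10, 95% interval -0.04 to 0.40, adjusted p = 0.424 by limma), and 0.28 (adjusted p = 0.152 by limma) without cKO2.

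*Casp1*, whose product matures IL-1β and IL-18 as well as cutting gasdermin D, lies at chr9:5298517-5307265 on the plus strand. Its normalized counts were 2176, 2256 and 2312 in cKO mice and 2124, 2015 and 2049 in WT mice. The genotypes did not overlap, but the lowest cKO library and the highest littermate were close. With means of 2248 ± 68.2 and 2063 ± 55.8 (SD, n = 3), the log2 difference of 0.12 (SE 0.07, 95% interval -0.04 to 0.29) had an adjusted p of 0.454 by limma. A two-sided exact permutation test gave p = 0.1, the smallest that 3 against 3 libraries allow.

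*Casp4*, the lipopolysaccharide-sensing caspase-11, follows *Casp1* at chr9:5308828-5336783 on the plus strand. It was at 1029, 669 and 955 normalized counts in cKO mice and at 940, 715 and 868 in WT mice, so that the genotypes overlapped and cKO2 was the lowest of the 6 libraries. From means of 884 ± 190 and 841 ± 115 (SD, n = 3), the log2 difference of 0.06 (SE 0.18, 95% interval -0.36 to 0.48, adjusted p = 0.901 by limma) became -0.06 without cKO1 and 0.25 without cKO2.

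*Pycard*, encoding the inflammasome adaptor ASC, lies at chr7:127989708-127993867 on the minus strand. It was at 1756, 1735 and 1729 normalized counts in cKO mice, the narrowest spread of the 10 genes in that group, and at 1671, 1811 and 2009 in the littermates. The genotypes overlapped, at means of 1740 ± 14.4 and 1830 ± 170 (SD, n = 3) and a log2 difference of -0.07 (SE 0.09, 95% interval -0.27 to 0.13, adjusted p = 0.734 by limma). Of its exonic bases, 12.8% also belong to Gm45205 on the plus strand, and whether strand was used in counting is not stated.

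*Aim2*, the DNA sensor, lies at chr1:173350879-173466040 on the plus strand. Its normalized counts were 1134, 1060 and 1298 in cKO mice and 1195, 1003 and 1227 in WT mice, which overlapped throughout. Means of 1164 ± 121 and 1142 ± 121 (SD, n = 3) gave a log2 difference of 0.03 (SE 0.11, 95% interval -0.23 to 0.29, adjusted p = 0.923 by limma), the highest adjusted p of the 10 genes.

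*Ripk3*, the necroptosis kinase at chr14:55784995-55788865 on the minus strand, was at 1794, 1027 and 1295 normalized counts in cKO1, cKO2 and cKO3 and at 837, 1011 and 914 in the littermates. Every cKO library was above every littermate, although cKO2 exceeded the highest littermate by little. With means of 1372 ± 390 and 921 ± 87.1 (SD, n = 3), the log2 difference was 0.54 (SE 0.20, 95% interval 0.08 to 1.01), the highest of the 10 genes, and its adjusted p of 0.316 by limma was the smallest of them but missed the threshold. A two-sided exact permutation test gave p = 0.1, again the smallest possible. Without cKO1 the log2 difference was 0.33 (adjusted p = 0.379 by limma), and without cKO2 it was 0.73 (adjusted p = 0.0823 by limma).

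*Mlkl*, the substrate of RIPK3, lies at chr8:111311797-111338177 on the minus strand. It was at 971, 589 and 752 normalized counts in cKO mice and at 646, 627 and 554 in WT mice. cKO1 and cKO3 were above all littermates and cKO2 was within their range. Means of 771 ± 192 and 609 ± 48.4 (SD, n = 3) gave a log2 difference of 0.31 (SE 0.18, 95% interval -0.09 to 0.72, adjusted p = 0.448 by limma), which was 0.13 without cKO1 and 0.49 without cKO2.

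The 10 genes therefore ranked the cKO mice in opposite ways. cKO1 had the lowest value of its group for *Gsdmc2*, *Gsdmc3*, *Gsdmc4* and *Casp1* (4 of 10) and the highest for *Gsdmd*, *Casp4*, *Pycard*, *Ripk3* and *Mlkl* (5 of 10). The highest cKO library exceeded the lowest by only 1.06-fold for *Casp1* and 1.02-fold for *Pycard*, so their ranks carry little weight. The gasdermin C genes share stretches of sequence, so their ranks are not independent. cKO2 had the lowest value of its group for *Gsdmd*, *Casp4*, *Aim2*, *Ripk3* and *Mlkl*, and the highest for the gasdermin C genes. When cKO2 was left out, 8 of the 10 genes did not overlap between the genotypes, of which *Gsdmd*, *Casp1*, *Casp4*, *Ripk3* and *Mlkl* were higher and *Gsdmc2*, *Gsdmc3* and *Gsdmc4* lower. The same count was 2 of 10 without cKO1, cKO3, WT2 or WT3, where 30.7%, 29.0%, 30.6% and 31.1% of all tested genes did not overlap, and 3 of 10 without WT1, where 33.0% did not. In the 5 libraries without cKO2 37.6% of all tested genes did not overlap, and at an adjusted p of 0.05 limma called 0 of the 10 and 0.751% of all tested genes.

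**Figure D4:**
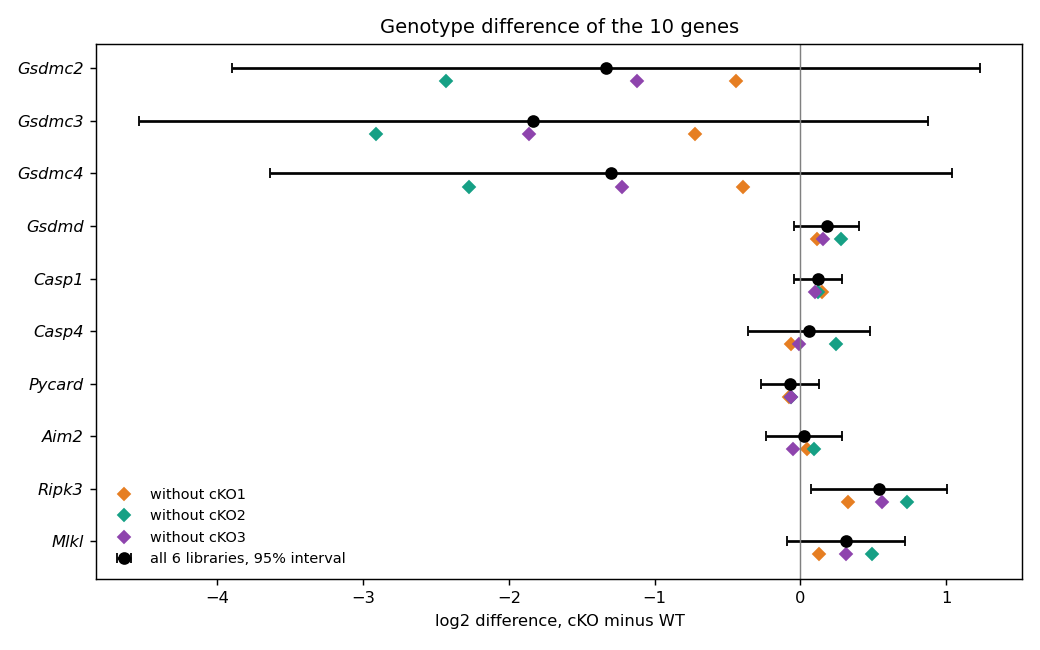
Log2 difference between cKO and WT mice (x axis) for the 10 genes with all 6 libraries (black circles, bars are 95% intervals from limma) and without each cKO library (diamonds). The intervals of the gasdermin C genes span more than those of the other 7 genes, and only the interval of *Ripk3*, 0.08 to 1.01, lies wholly on one side of 0.

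The genes were also compared per kilobase of gene length. This length counts all annotated exonic bases of a gene (3800 for *Pycard*) and is not the length of a transcript. The order between genes is therefore only roughly corrected for length. In the littermates it was *Gsdmc4* at 11716 ± 2560 normalized counts per kilobase (SD, n = 3), *Gsdmc2* at 5472 ± 2178, *Gsdmc3* at 1817 ± 428, *Casp1* at 1378 ± 37.3 and *Gsdmd* at 1249 ± 16.5. *Pycard* at 482 ± 44.7, *Ripk3* at 402 ± 38.0, *Aim2* at 326 ± 34.6, *Mlkl* at 264 ± 21.0 and *Casp4* at 227 ± 30.9 followed. The ranges of *Pycard* and *Ripk3* overlapped, as did those of *Mlkl* and *Casp4*, and the other neighbours in this order did not overlap. Gasdermin C genes thus held the first 3 places per kilobase in the littermates. In cKO1, *Gsdmc3* was at 107 normalized counts per kilobase, below every value of the other 9 genes in any library.

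The summed neutrophil, interferon, fibroblast and endothelium markers were each highest in cKO1, the library in which *Ripk3* and *Mlkl* were highest. The neutrophil genes *S100a8*, *S100a9*, *Cxcr2*, *Csf3r* and *Mmp8* summed to 6483, 146 and 974 normalized counts in cKO1, cKO2 and cKO3 and to between 96.3 and 120 in the littermates. All 5 had a higher mean log2 level in cKO mice. Of them, 3 were higher without overlap, where 10.5% of all tested genes were. *Cxcr2* was listed at 0 in WT1 and WT3 and *Mmp8* in WT3. *Ly6g*, the sixth neutrophil marker, did not follow this order, at 2486, 2832 and 2200 against 2829, 3136 and 3064. With *Ly6g* included, the list summed to between 2978 and 8969 normalized counts in cKO mice and between 2950 and 3232 in the littermates.

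The interferon response list (*Irf1*, *Irf7*, *Isg15*, *Ifit1*, *Ifit3*, *Rsad2*, *Oas1a*, *Cxcl10*) summed to 11017, 7411 and 8176 normalized counts against 5954, 7491 and 6822, with 7 of 8 genes higher and none at 0. The 8 macrophage and monocyte markers were all higher in cKO mice by mean log2 level, with sums of 3920 to 4997 against 2228 to 4456. All 5 fibroblast markers were higher too, with sums of 42199, 20696 and 22213 in cKO1, cKO2 and cKO3 against 17708, 10418 and 13094. The endothelium markers summed to 3270, 2023 and 1950 against 1984, 1319 and 1901. Of the other lists, the higher genes were 1 of 3 tested for tuft cells, 3 of 6 for T and NK cells, 5 of 6 for B and plasma cells, 3 of 4 for endothelium, 0 of 5 for smooth muscle and 0 of 3 for enteric neurons and glia. The part of these markers in the values of *Ripk3*, *Mlkl*, *Gsdmd* and *Casp1* was not tested.

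The wider pathway was read from a list of 48 further genes by role, of which 46 were listed and 40 tested. Limma called 0 of the 40 at an adjusted p of 0.05, and at an unadjusted p under 0.05 it counted 11 higher and 2 lower, where 6.91% of all tested genes were higher and 7.08% lower. That count of 13 was 5 without cKO1, cKO3, WT1 or WT3, 9 without WT2 and 17 without cKO2. At the same unadjusted p by limma, 8.93% of all tested genes were higher and 8.77% lower without cKO2. In the other leave-outs 4.88% to 5.96% of all tested genes were higher and 4.55% to 6.32% lower. In cKO mice 32 of the 40 had a higher mean log2 level and 8 a lower one, with a median difference of 0.13 against 0.0013 over all tested genes. Without overlap were 11 higher and 2 lower genes (32.5%), where 21.4% of all tested genes did not overlap. Without cKO2, 31 were higher and 9 lower, and 22 did not overlap, 20 higher and 2 lower (55.0%, against the 37.6% of all tested genes given above). With any other library left out, 37.5% to 42.5% of the 40 did not overlap, against 29.0% to 33.0% of all tested genes. *Gsdma2*, *Gsdmc*, *Pjvk*, *Nlrp12*, *Elane* and *Ctsg* were below the filter.

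Among the substrates of caspase-1, *Il1b*, which encodes IL-1β, was at 993, 255 and 424 normalized counts in cKO1, cKO2 and cKO3 and at 113, 72.0 and 91.9 in the littermates, without overlap. Its log2 difference was 2.38 (SE 0.50, adjusted p = 0.211 by limma), the smallest adjusted p of the list, and 2.83 (adjusted p = 0.0483 by limma) without cKO2. *Il18*, the other substrate, overlapped between the genotypes at a log2 difference of 0.09 (adjusted p = 0.863 by limma).

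All 5 tested adaptors and activators were higher by mean log2 level, with a median difference of 1.01. *Gbp3*, an interferon-induced GTPase of the family that acts upstream of caspase-11, was at 966, 430 and 662 normalized counts against 317, 313 and 340 (log2 difference 1.01, SE 0.27, adjusted p = 0.264 by limma, and 0.0328 without cKO2). Of the 11 tested inflammasome sensors, 10 were higher and 1 lower, with a median of 0.10. The sensor gene *Nlrp3* was at 116, 24.3 and 46.4 against 19.8, 18.0 and 19.0 normalized counts, a log2 difference of 1.39 (SE 0.52, adjusted p = 0.317 by limma) that was 0.80 without cKO1 and 1.90 without cKO2, with cKO1 far above the rest. *Nlrp6*, *Nlrc4* and *Naip1*, sensors known from the intestinal epithelium, had log2 differences of 0.05, 0.04 and 0.07. The Naip and Gbp genes have close relatives, and how shared reads were counted is not stated, so their single values are uncertain.

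Of the 12 necroptosis genes, 10 were higher and 2 lower, with a median of 0.17. *Zbp1*, a sensor of Z-form nucleic acid that engages RIPK3, was at 2364, 1264 and 1738 normalized counts against 854, 1058 and 1167 without overlap (log2 difference 0.77, SE 0.24, adjusted p = 0.291 by limma, and 0.99 on the log2 scale without cKO2). *Tlr3*, the receptor for double-stranded RNA, was at 874, 654 and 764 against 595, 629 and 572 (log2 difference 0.34, adjusted p = 0.306 by limma, and 0.45 on the log2 scale without cKO2). *Fadd*, the adaptor that links death receptors to caspase-8, was at 331, 315 and 369 against 413, 400.3 and 413, below every littermate (log2 difference -0.28, adjusted p = 0.331 by limma). *Ripk1*, the partner kinase of RIPK3, overlapped between the genotypes at a log2 difference of 0.14 (adjusted p = 0.504 by limma).

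Both tested gasdermins outside the 10 genes had lower means. *Gsdme*, whose product also forms membrane pores once cleaved, was at 179, 154 and 160 normalized counts against 207, 220 and 244 without overlap (log2 difference -0.44, SE 0.14, adjusted p = 0.284 by limma), and *Gsdma* was below 20 in every library. *Casp12*, of the same caspase group as *Casp1* and *Casp4*, was at 173, 109 and 138 against 91.8, 102 and 87.9 (log2 difference 0.55, adjusted p = 0.322 by limma, and 0.72 on the log2 scale without cKO2). *Chmp4b*, a subunit of the ESCRT-III complex that repairs membrane pores, was at 4854, 4273 and 4655 against 3756, 4116 and 4004 (log2 difference 0.21, adjusted p = 0.322 by limma). *Gsdme*, *Casp12* and *Chmp4b* did not overlap between the genotypes.

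**Figure D5:**
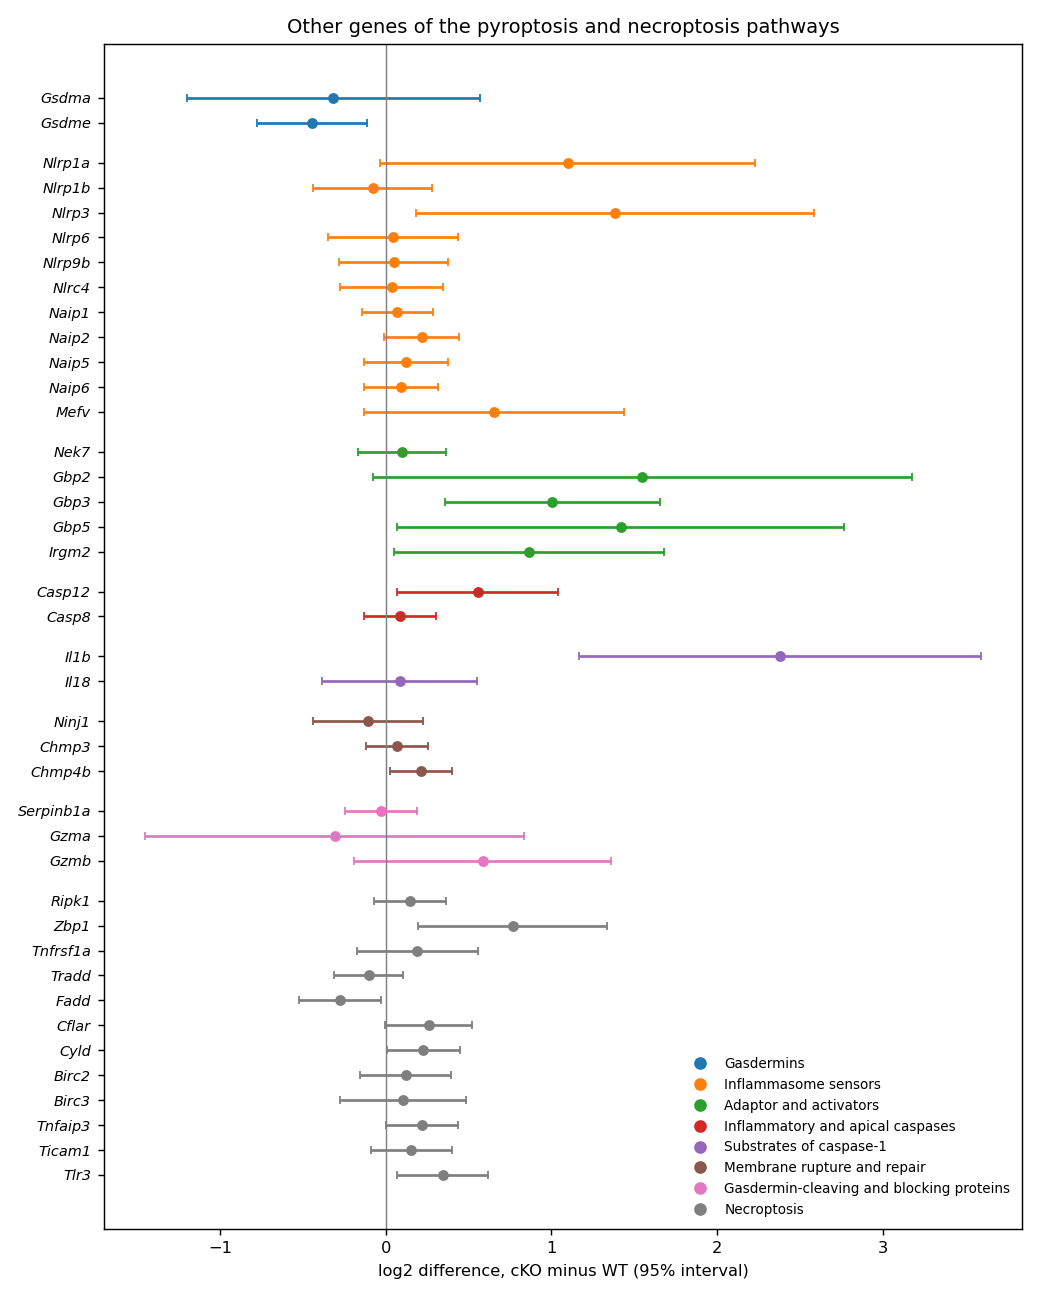
Log2 difference between cKO and WT mice (x axis) with 95% intervals from limma for the 40 tested genes of the wider list, coloured by role. Of the 40 points, 32 lie above 0 and 8 below, with *Il1b* at 2.38 the farthest from 0 and *Gsdme* at -0.44 the lowest.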

How the data were processed

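Total RNA of whole mouse colon, isolated with TRIzol and made into libraries with the NEBNext Ultra kit, was sequenced from 3 Nedd4l fl/fl Villin Cre and 3 Nedd4l fl/fl mice. The authors deposited normalized counts per gene, a signal that is the read count divided by 1 size factor per library. The submitters' processing notes name HISAT2 2.0.5 and featureCounts 1.5.0-p3. The genome build named there is a human one, whereas all 10 genes have the coordinates of GRCm38 (GENCODE M21). Strand use and multi-mapping reads are not described in the sources used here. The deposited table also holds the authors' means, log2 fold change, p-value and adjusted p-value, and gene length. Of these only gene length was used. The paper's text names no test for these data.

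Values were transformed to log2(value + 1), so differences of low genes are understated. Genes with a mean of at least 10 were fitted in limma 3.58.1 (R 4.3.3; trend and robust settings; Benjamini-Hochberg over all tested genes; threshold 0.05). Single genes were also compared by exact permutation. The fit was tested on simulated data in which each gene had the same spread in both genotypes, unlike the gasdermin C genes. There it found 49.35% of log2 changes of 1 and 77.1% of log2 changes of 2. Of its calls, 4.16% were unchanged genes. The labels number the mice of each genotype and say no more about the samples, so p-values measure the spread between these libraries. Named are the 10 genes, *Nedd4l*, of the 10 genes of the wider list with the smallest p the 9 reported here, and markers by list. Some genes of the lists are not reported here and were left out of the list counts. *Il18*, *Nlrp6*, *Nlrc4*, *Naip1*, *Ripk1* and *Gsdma* were named after their values were seen. The genes and lists were chosen with earlier results of these data known. Other pseudocounts, filters, scalings, variance models, library weights, a replicate block and leaving out each library were the alternatives. Figures were drawn with matplotlib 3.10.9 (Python 3.11.15).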

Additional observations from a re-analysis of the deposited data

How the results depend on the processing

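None of the 10 genes passed an adjusted p of 0.05 in any of the 15 alternatives run, and of their 150 log2 differences 144 kept their direction. The 6 that turned were near 0, *Aim2* at -0.053 without cKO3 and -0.062 without WT2, *Casp4* at -0.064 without cKO1, -0.01 without cKO3 and -0.05 without WT2, and *Pycard* at 0.00018 without WT3. With 1 library left out, *Aim2* ran from -0.062 to 0.093, *Casp4* from -0.064 to 0.25 and *Pycard* from -0.13 to 0.00018. The median of the 10 genes (0.043) was 0.13 with array weights and ran from -0.058 to 0.11 with 1 library left out. Adjusted p-values of *Ripk3* by limma ran from 0.0586 (array weights) to 0.520. Over all tested genes 0 were called, against 631 with array weights, 30 with no filter and 0 to 122 with 1 library left out (24 without cKO1 and 122 without cKO2). Array weights gave cKO3 a weight of 4.39 and the other 5 libraries 0.41 (cKO1) to 1.34. In the wider list, *Gbp3* and *Il1b* (2 genes) were called with array weights and without cKO2, and 0 to 2 with 1 library left out. *Nedd4l* was at -1.09 (adjusted p = 0.0212 by limma) with array weights and ran from -1.28 to -0.79 with 1 library left out. Across genes, same-numbered mice of the genotypes did not deviate together (r = -0.029, -0.090 and -0.056). With 3 mice a group this cannot exclude a pairing, and the labels state none. With the replicate number as a replicate block limma called 0 genes, and *Ripk3* had an adjusted p of 0.357. Count tests on recovered whole reads were not run. With 3 mice a group and the spread of the gasdermin C genes, their 95% intervals cover both directions with all 6 libraries. Without cKO2 the intervals were -3.86 to -1.01 for *Gsdmc2*, -4.84 to -0.98 for *Gsdmc3* and -3.73 to -0.82 for *Gsdmc4*, and with the replicate block -3.56 to -0.10 for *Gsdmc3*, none with an adjusted p under 0.05. Reads shared within the cluster limit the split among the genes.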
